A study of Mus musculus with 6 samples.

Results

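The receptors that bind the Fc end of immunoglobulin G (IgG) are encoded in the mouse by Fcgr1, Fcgr2b, Fcgr3, Fcgr4, the signalling chain Fcer1g and the neonatal receptor gene Fcgrt. These 6 genes were chosen by name from the 24341 genes of an RNA sequencing table of alveolar macrophages (AMs). AMs are the resident macrophages of the lung airspaces. The choice did not use the values of these genes, but earlier results of these data were known when it was made. The table compared AMs that carry the hyaluronan receptor CD44 with AMs that lack it, and a part of its purpose was to find genes that differ in CD44-/- AMs. CD44+/+ and CD44-/- cells came from untreated female C57BL/6 mice of 6 to 10 weeks, with 3 samples per genotype. In the CD44-/- mice the deletion was not limited to AMs, so every cell around them also lacked CD44. Cells were washed from the lungs by bronchoalveolar lavage (BAL) with PBS and EDTA, red blood cells were lysed, and no sorting step was named. Each sample was a pool of mice, so the spread between replicates is a spread between pools.

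IgG-coated particles are engulfed when they cross-link activating receptors on a phagocyte. FcγRI (Fcgr1), FcγRIII (Fcgr3) and FcγRIV (Fcgr4) bind IgG but signal through the common γ chain (Fcer1g), whose cytoplasmic tail holds an immunoreceptor tyrosine-based activation motif (ITAM) that is phosphorylated by Src family kinases and then docks the kinase Syk. FcγRIIB (Fcgr2b) carries an inhibitory motif (ITIM) in its own tail, which recruits the lipid phosphatase SHIP-1 and dampens the activating signal. FcRn (Fcgrt), which pairs with β2-microglobulin, works inside the cell, where it binds IgG at acid pH and returns it to the surface instead of letting it be degraded.

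The split between activation and inhibition is written in 2 short coding stretches, which are shown here because the results below compare the transcripts that carry them. Both were read 5′ to 3′ from the coding strand of GRCm38 (mm10) with the GENCODE vM21 annotation, and capitals mark the tyrosine codons. The ITAM of Fcer1g spans codons 65 to 79 of 86 on the minus strand and is split over exon 4 (chr1:171230067-171230072) and exon 5 (chr1:171229889-171229927). The ITIM of Fcgr2b spans codons 317 to 322 of 340, in exon 8 of 8 on the minus strand (chr1:170961071-170961088).
Fcer1g ITAM: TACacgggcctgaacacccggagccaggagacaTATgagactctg
Fcgr2b ITIM: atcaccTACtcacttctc
A search of the 6 coding sequences for the ITAM pattern gave 1 match, that of Fcer1g. The looser ITIM pattern gave 7 matches in 5 of the 6 genes, so that these letters alone do not set Fcgr2b apart.

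A second pair of sequences bears on how far reads can be assigned to Fcgr2b and Fcgr3, the inhibitory and an activating receptor with near-identical IgG-binding parts. Over 784 aligned coding bases the genes had 658 in common, which is 83.9%, while the other pairs among the 4 Fcγ receptor genes reached 58.6% to 63.5%. The longest run of identical bases was 129 bases, and it is shown with 18 bases on each side. The 165 bases shown, the run and its flanks, lie in exons 3 and 4 on the minus strand, at chr1:170967980-170968099 and chr1:170966656-170966700 for Fcgr2b and at chr1:171057691-171057810 and chr1:171054149-171054193 for Fcgr3 (GRCm38). Capitals mark the 2 bases that differ.
Fcgr2b: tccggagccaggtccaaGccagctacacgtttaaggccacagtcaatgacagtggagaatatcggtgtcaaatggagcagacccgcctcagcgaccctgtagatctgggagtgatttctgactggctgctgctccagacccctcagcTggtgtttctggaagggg
Fcgr3: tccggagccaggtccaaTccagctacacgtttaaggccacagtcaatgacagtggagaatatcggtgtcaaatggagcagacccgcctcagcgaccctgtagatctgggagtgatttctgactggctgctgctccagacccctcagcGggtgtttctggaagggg
Of the 1306 windows of 42 bases, the read length of the libraries, in the main Fcgr3 transcript, 190 (14.5%) occurred letter for letter in Fcgr2b. In the main Fcgr2b transcript 454 of 3503 windows (13.0%) occurred in another gene, 190 of them in Fcgr3 and 264 outside the coding part in other genes. Fcgr1, Fcgr4, Fcer1g and Fcgrt had 0 such windows. GENCODE also places the antisense genes Gm38204 and Gm45669 over Fcgr2b and Fcgrt, and the strand setting of the counting is not given in the sources used here. The split of shared reads between Fcgr2b and Fcgr3 by the authors' counting was therefore uncertain for these windows, and its part in the values below was not tested. The windows stand for single reads, while the libraries were paired-end, so a mate outside the shared stretches can still assign a fragment. The share of fragments that remain ambiguous was not computed.

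Levels are given as FPKM, a count of sequenced fragments scaled to the length of the transcript and to the fragments mapped in the library, so that genes of different length can be compared. Read totals of the libraries are not among the values used, so the absolute depth is unknown. Steps between the lowest values put the depth relative to CD44+/+ replicate 1 at 0.836 and 1.02 for CD44+/+ replicates 2 and 3 and at 1.01, 0.788 and 0.956 for CD44-/- replicates 1, 2 and 3, lowest in replicate 2 of both genotypes. All 6 receptor genes passed the minimum of a mean of 0.5 FPKM that left 10800 genes to test, and all 6 were above 0 in every sample. Differences between genotypes are log2 fold changes of FPKM + 0.1, CD44-/- over CD44+/+, tested with limma (two-sided, adjusted over the 10800 genes) and called at an adjusted p under 0.05. With 3 samples against 3, the exact permutation test over samples (two-sided) that is given beside them cannot reach a p below 0.1.

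The labels held where they could be checked. Cd44 was at 540, 535 and 527 FPKM in the CD44+/+ samples and at 54.7, 54.5 and 51.4 FPKM in the CD44-/- samples, a log2 fold change of -3.32 ± 0.05 (SE; limma adjusted p = 4.19e-09). All 10 AM markers were tested and none was called, with summed levels of 16970 to 19700 FPKM in CD44+/+ and 16470 to 20710 FPKM in CD44-/- samples, of which Chil3 alone made up 10300 to 14200 FPKM. Named after their values were seen, 3 of the 10 did not overlap between the genotypes, beside 11.6% of all genes tested. Krt79 (log2 fold change -0.38, limma adjusted p = 0.184) and Mrc1 (-0.08, limma adjusted p = 0.748) were lower in every CD44-/- sample, and Itgax (0.08, limma adjusted p = 0.809) was higher. Of other cells that use IgG receptors, the markers of natural killer cells summed to at most 0.583 FPKM, those of B cells and plasma cells to at most 0.535 FPKM (5 of 7 markers, since Ighm and Igkc had no row, with Jchain at 0) and those of mast cells and basophils to at most 0.477 FPKM, with Fcer1a and Mcpt8 at 0 in every sample. Neutrophil markers summed to 21.8 to 67.6 FPKM in CD44+/+ and 32.9 to 37.4 FPKM in CD44-/- samples, with Mpo and Ngp at 0 and no row for Ly6g (6 of 7 markers), and monocyte markers to 5.25 to 6.47 and 5.07 to 6.67 FPKM. Markers of interstitial or monocyte-derived macrophages summed to 5.97 to 10.6 FPKM in CD44+/+ and 11.1 to 13.8 FPKM in CD44-/- samples, with 3 of the 5 tested genes higher in every CD44-/- sample, beside the same 11.6% without overlap in either direction, and none called. Dendritic cell markers summed to 3.06 to 6.45 and 4.29 to 9.78 FPKM in the 2 genotypes. The part of any of these cells in the receptor values was not tested, and in bulk RNA a change in the number of cells of a type and a change in RNA per cell cannot be told apart.

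None of the 6 IgG receptor genes was called between the genotypes, beside 0.111% of all genes tested (12 of 10800). None passed at an unadjusted limma p under 0.05 either, beside 7.69% of all genes, and in none were the 3 CD44-/- samples all above or all below the 3 CD44+/+ samples, beside 11.6% of all genes. The intervals bound how large a difference the data allow. Across the 6 genes, the 95% intervals of the fold change reached down to 0.745 (Fcgr4) and up to 1.32 (Fcgr2b), so that larger changes at the transcript level lay outside them. A p above the threshold does not show that the levels are equal. With the replicate number as a block, 2 of the 6 genes, Fcgr4 and Fcgrt, had an unadjusted limma p under 0.05, beside 9.71% of all genes, and 0 were called after adjustment. Within same-numbered pairs, which the labels do not define, the CD44-/- sample was lower in 3 of 3 for these 2 genes. It was lower in 2 of 3 for Fcgr1 and Fcgr3 and in 1 of 3 for Fcer1g and Fcgr2b. The share of all genes with 3 of 3 pairs on the same side was not computed.

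Fcgr3 (chr1:171051169-171059403), a low-affinity activating receptor, was the most abundant of the IgG-binding activating chains. Its level was 311, 294 and 313 FPKM in CD44+/+ replicates 1, 2 and 3 and 345, 291 and 311 FPKM in CD44-/- replicates 1, 2 and 3. Replicate 2 was the lowest in both genotypes, and the groups overlapped, with the highest and the lowest value both in CD44-/- samples. The means were 306 ± 10.4 and 316 ± 27.3 FPKM (SD, n = 3 each), a log2 fold change of 0.04 ± 0.07 (SE; 95% interval -0.11 to 0.19; limma adjusted p = 0.970; exact permutation p = 0.9). Its sign turned without CD44-/- replicate 1 (-0.02), and it was 0.10 without CD44-/- replicate 2.

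Fcgr4 (chr1:171018926-171029761), the receptor for IgG2a and IgG2b that is found on mouse macrophages, monocytes and neutrophils, was measured at 101, 102 and 135 FPKM in CD44+/+ and at 98.4, 92.7 and 106 FPKM in CD44-/- samples. CD44+/+ replicate 3 stood above the other 5 samples, which lay between 92.7 and 106 FPKM. The means were 113 ± 19.3 and 99.0 ± 6.67 FPKM (SD, n = 3 each), and the log2 fold change was -0.17 ± 0.11 (SE; 95% interval -0.43 to 0.08; limma adjusted p = 0.826; exact permutation p = 0.4). Without CD44+/+ replicate 3 the log2 fold change was -0.04. The CD44-/- sample was the lower one in 3 of 3 same-numbered pairs. With the replicate number as a block the standard error was 0.07 (limma unadjusted p = 0.0362, adjusted p = 0.469).

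Fcgr1 (chr3:96282909-96293969), the high-affinity receptor and the only Fcγ receptor gene of the 4 that lies outside the chromosome 1 cluster, had the lowest level of the 6 genes. It was at 31.5, 27.0 and 30.1 FPKM in CD44+/+ and at 30.2, 30.2 and 28.2 FPKM in CD44-/- samples. The CD44-/- values lay within the CD44+/+ range. Both means were 29.5 FPKM (SD 2.30 and 1.15, n = 3 each), with a log2 fold change of 0.0022 ± 0.07 (SE; 95% interval -0.16 to 0.16; limma adjusted p = 0.998; exact permutation p = 0.8), whose sign turned under other scalings and with single samples left out (-0.06 to 0.05).

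Fcer1g (chr1:171229572-171234349), the γ chain that the 3 activating receptors need for signalling and for stable surface expression, was by far the most abundant member and ranked 37th of the 10800 genes tested. Its level was 898, 967 and 902 FPKM in CD44+/+ and 940, 897 and 1000 FPKM in CD44-/- samples. The lowest and the highest of the 6 values were both from CD44-/- samples. The means were 922 ± 38.7 and 946 ± 51.7 FPKM (SD, n = 3 each), a log2 fold change of 0.04 ± 0.06 (SE; 95% interval -0.10 to 0.17; limma adjusted p = 0.971; exact permutation p = 0.7). Its sign turned without CD44-/- replicate 3 (-0.0056), and it was 0.07 without CD44-/- replicate 2.

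Fcgr2b (chr1:170960559-170976071), the inhibitory receptor, was at 112.7, 126 and 152 FPKM in CD44+/+ and at 147, 140.9 and 149.5 FPKM in CD44-/- samples. CD44+/+ replicates 1 and 2 were below all CD44-/- samples, and CD44+/+ replicate 3 was the highest of the 6. The CD44+/+ samples varied more, with a coefficient of variation of 15.4% against 3.02% in CD44-/- samples. The means were 130.3 ± 20.1 and 146 ± 4.41 FPKM (SD, n = 3 each), a log2 fold change of 0.17 ± 0.10 (SE; 95% interval -0.05 to 0.39; limma adjusted p = 0.792; exact permutation p = 0.4). Without CD44+/+ replicate 3 the log2 fold change was 0.29 (limma adjusted p = 0.325), and without CD44+/+ replicate 1 it was 0.07.

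Fcgrt (chr7:45092993-45103822), the recycling receptor, was at 291, 261 and 274 FPKM in CD44+/+ and at 277, 239 and 251 FPKM in CD44-/- samples. Within each genotype replicate 1 was the highest and replicate 2 the lowest. The groups overlapped through CD44-/- replicate 1, which was above CD44+/+ replicates 2 and 3. Epithelial cells also use FcRn, and alveolar epithelial markers summed to 15.6 to 25.2 FPKM in CD44+/+ and 21.8 to 92.2 FPKM in CD44-/- samples, highest in CD44-/- replicate 3, whose part in the Fcgrt values was not tested. The means were 275 ± 15.0 and 256 ± 19.4 FPKM (SD, n = 3 each), a log2 fold change of -0.11 ± 0.07 (SE; 95% interval -0.26 to 0.04; limma adjusted p = 0.822; exact permutation p = 0.3). Without CD44-/- replicate 1 the log2 fold change was -0.17, without CD44-/- replicate 2 it was -0.06 and without CD44+/+ replicate 1 it was -0.07. The CD44-/- sample was the lower one in 3 of 3 same-numbered pairs. With the replicate block the standard error was 0.04 (limma unadjusted p = 0.0420, adjusted p = 0.487).

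**Figure D1:**
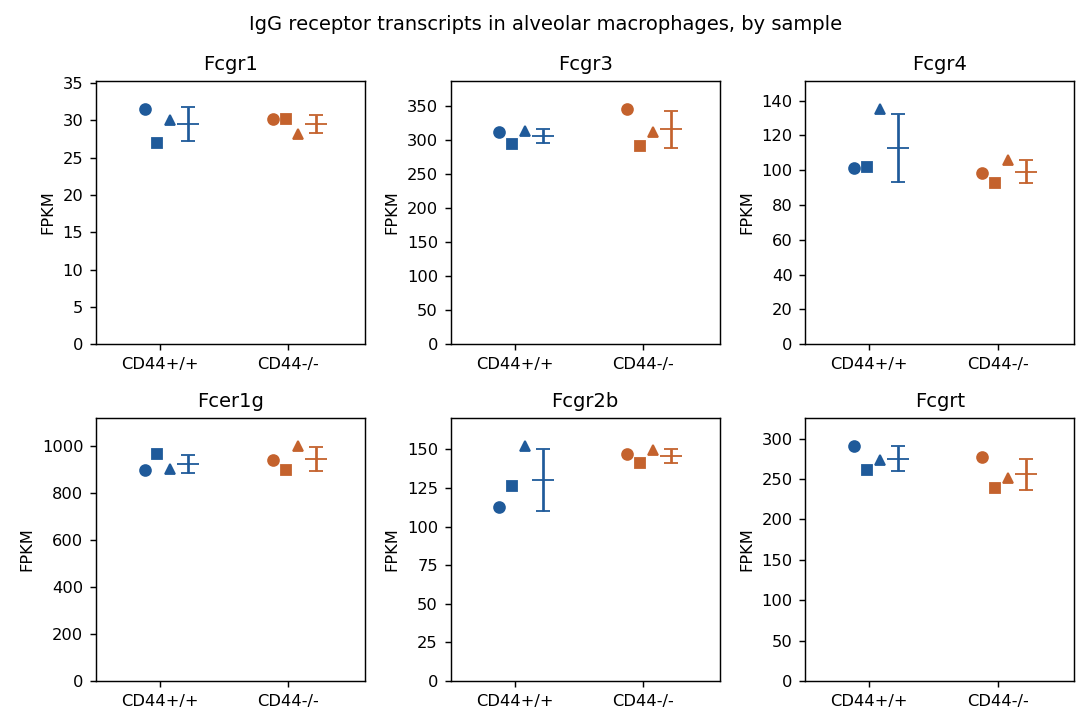
FPKM of the 6 IgG receptor genes in each CD44+/+ (blue) and CD44-/- (orange) sample, on linear axes that start at 0. Circles, squares and triangles are replicates 1, 2 and 3, the horizontal mark is the mean and the bar is the SD (n = 3). The genotypes overlap in all 6 panels. CD44+/+ replicate 3 has the highest value of both Fcgr4 (135 FPKM) and Fcgr2b (152 FPKM).

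**Figure D2:**
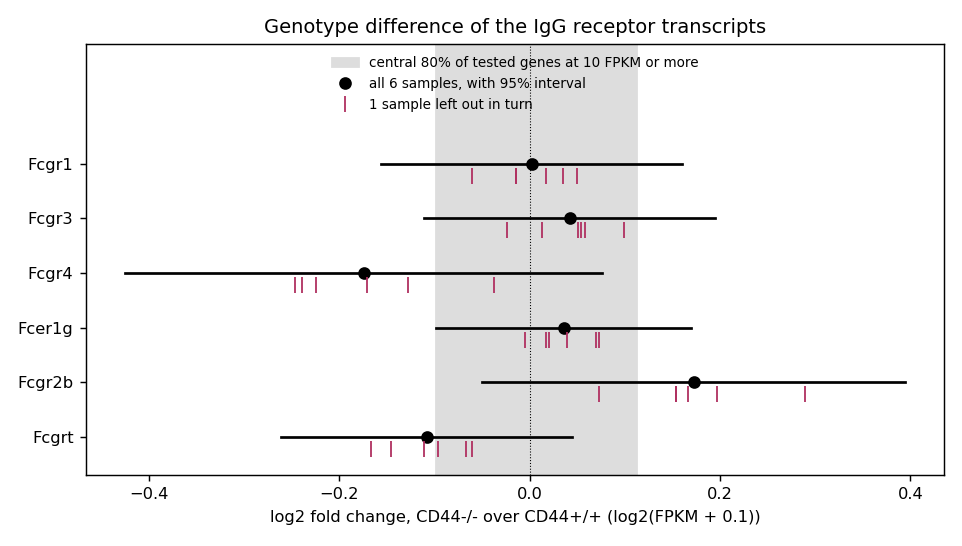
Log2 fold change of each IgG receptor gene, CD44-/- over CD44+/+, with its 95% interval (line) and the value with each sample left out in turn (ticks). The grey band holds the central 80% of the 6029 tested genes whose mean was 10 FPKM or more (-0.10 to 0.11), and all 6 intervals cross 0.

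The spread of the receptor genes was like that of other expressed genes. Their median standard error was 0.07 on the log2 scale, beside 0.07 over the 6029 tested genes whose mean was 10 FPKM or more, and the ratio of the highest to the lowest sample had a median of 1.20, beside 1.17. The absolute log2 fold change had a median of 0.08 over the receptor genes and 0.05 over those 6029 genes, of which 10% exceeded 0.15. Fcgr2b and Fcgr4 were the 2 receptor genes past that size, in opposite directions.

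The levels spanned a ratio of 31.6 between the means of Fcer1g and Fcgr1. Fcer1g was 3.01 times Fcgr3, and no sample of Fcer1g reached any of Fcgr3. Fcgr3 was 1.17 times Fcgrt, and although it was higher in 6 of 6 samples, the lowest Fcgr3 value equalled the highest Fcgrt value at 291 FPKM, so these neighbours were not separated across samples. Fcgrt was 1.92 times Fcgr2b with no overlap. Fcgr2b was 1.30 times Fcgr4 and higher within 6 of 6 samples, but the ranges overlapped between samples. Fcgr4 was 3.58 times Fcgr1 with no overlap. This order was the same in both genotypes. Fcer1g was 1.89 to 2.29 times the summed FPKM of the 3 receptors it serves, and Fcgr3 made up 65.5% to 72.9% of that sum, Fcgr4 20.8% to 28.2% and Fcgr1 6.30% to 7.30%.

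Within-sample ratios describe the balance between activating and inhibitory transcripts, and they are given without a test because they were built from the chosen genes. The sum of Fcgr1, Fcgr3 and Fcgr4 over Fcgr2b was 3.94, 3.35 and 3.14 in CD44+/+ and 3.22, 2.94 and 2.98 in CD44-/- samples. CD44-/- replicate 1 lay between CD44+/+ replicates 2 and 3, so the genotypes overlapped, with means of 3.48 ± 0.412 and 3.05 ± 0.154 (SD, n = 3 each). Within same-numbered pairs the CD44-/- sample had the lower ratio in 3 of 3. Most of this ratio is Fcgr3, whose own ratio to Fcgr2b was 2.06 to 2.76 in CD44+/+ and 2.07 to 2.35 in CD44-/- samples.

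Of 12 such ratios and sums, 1 did not overlap between the genotypes. Fcgr4 over Fcgr2b was 0.896, 0.809 and 0.887 in CD44+/+ and 0.670, 0.658 and 0.709 in CD44-/- samples. Every CD44-/- sample was below every CD44+/+ sample, with means of 0.864 ± 0.0481 and 0.679 ± 0.0269 (SD, n = 3 each) and a log2 difference of -0.35. Both genes had their highest value in CD44+/+ replicate 3. With each sample left out in turn the log2 difference was -0.39 to -0.32. Neither gene was called on its own, and 11.6% of the 10800 genes tested did not overlap, as given above.

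**Figure D3:**
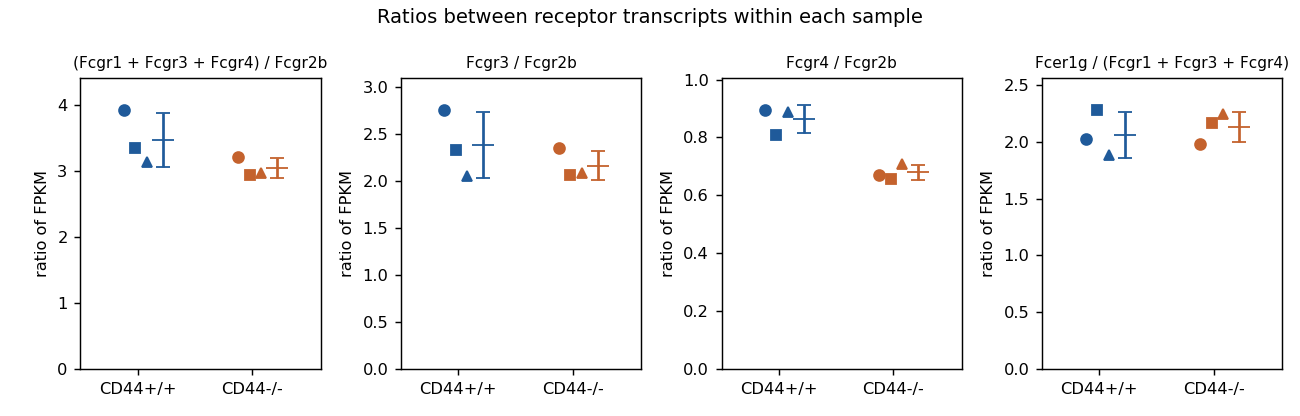
Ratios of FPKM within each sample for CD44+/+ (blue) and CD44-/- (orange), with circles, squares and triangles for replicates 1, 2 and 3 and the mean and SD (n = 3) beside them, on axes that start at 0. Fcgr4 over Fcgr2b is 0.809 to 0.896 in CD44+/+ and 0.658 to 0.709 in CD44-/- samples, while the other 3 ratios overlap.

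The genes that ran most like each receptor gene were taken as the 2 highest Pearson correlations of log2(FPKM + 0.1) over the 6 samples among 6028 other genes whose mean was 10 FPKM or more. They were Slpi (r = 0.982) and Mt1 (r = 0.978) for Fcgr2b, Mmp19 (r = 0.978) and Cotl1 (r = 0.969) for Fcgr4, and Plod1 (r = 0.983) and Tiparp (r = 0.960) for Fcgr3. For Fcgr1 they were Desi2 (r = 0.984) and Nup93 (r = 0.982), for Fcer1g Mettl23 (r = 0.977) and Laptm4b (r = 0.972), and for Fcgrt Ppp3r1 (r = 0.987) and Gcnt2 (r = 0.986). The values are the highest of many over 6 points that share libraries, so they are a description only. No receptor gene was among the 2 genes closest to another, and between receptor genes r ranged from -0.805 (Fcgr1 and Fcer1g) to 0.577 (Fcgr3 and Fcgrt).

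Fcgr2b, Fcgr4, Fcgr3 and Fcer1g lie within 273.8 kb of chromosome 1 (170960559 to 171234349, mm10). Another 8 genes of the table lie there, of which 4 were tested and none was called. Sdhc, a subunit of succinate dehydrogenase that is named after its values were seen, was higher in every CD44-/- sample (log2 fold change 0.10, limma adjusted p = 0.678). It was the 1 neighbour of the 4 tested without overlap, beside 11.6% of all genes tested. Within the cluster the values of Fcgr2b (0.17) and Fcgr4 (-0.17) had opposite signs, and both intervals held 0.

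The genes around the receptors were followed in 9 lists by role, which hold other receptors and regulators of the receptor genes as well as genes that act beneath them. Of 110 listed genes 90 were tested, and none was called (0.111% of all genes). At an unadjusted limma p under 0.05 there were 6 of 90 (6.67%, beside 7.69% of all genes), and 9 of 90 did not overlap between the genotypes (10.0%, beside 11.6%). The median log2 fold change was -0.01, beside 0.01 over all genes tested.

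The kinases and adaptors that read a phosphorylated ITAM were tested for 22 of 24 genes, with 9 values above 0, 13 below and a median of -0.02. Lyn, the Src family kinase that phosphorylates ITAMs and ITIMs, was at 151 ± 6.27 FPKM in CD44+/+ and 144 ± 10.7 FPKM in CD44-/- samples (SD, n = 3 each). Syk was at 138 ± 5.29 and 135 ± 6.48 FPKM, and Fgr at 139 ± 12.5 and 134 ± 7.94 FPKM, both with overlapping groups. Src had the largest difference of the list at a low level, 0.758 ± 0.212 and 1.35 ± 0.362 FPKM (log2 fold change 0.75, limma adjusted p = 0.524). Named after their values were seen, 3 genes of the list did not overlap, and none was called. Tec, a kinase downstream of Src family kinases, was higher in CD44-/- samples (log2 fold change 0.20, limma adjusted p = 0.592), while the adaptor Lcp2 (SLP-76; log2 fold change -0.19, limma adjusted p = 0.393) and the phospholipase Plcg2 (log2 fold change -0.06, limma adjusted p = 0.886) were lower.

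The phosphatases and other brakes, the side on which Fcgr2b acts, were tested for all 13 genes, with 3 values above 0, 10 below and a median of -0.05. Inpp5d, which encodes SHIP-1 and is named here as the partner of the ITIM, was at 56.3 ± 0.304 FPKM in CD44+/+ and 57.3 ± 0.939 FPKM in CD44-/- samples. Ptpn6 (SHP-1) was at 218 ± 9.59 and 211 ± 5.58 FPKM, Csk, which restrains Src family kinases, at 87.2 ± 3.30 and 86.2 ± 1.02 FPKM, and Dok3 at 71.9 ± 4.27 and 76.0 ± 2.00 FPKM (SD, n = 3 each). Dok2, an adaptor that recruits the Ras brake RasGAP, was the gene of this list with the largest difference and the only one without overlap. It was at 28.5, 28.2 and 28.6 FPKM in CD44+/+ and at 20.8, 25.5 and 24.2 FPKM in CD44-/- samples (log2 fold change -0.28, limma adjusted p = 0.371).

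The engulfment and actin machinery was tested for 25 of 26 genes, with 13 values above 0, 12 below and a median of 0.01. The most abundant, Cfl1 (cofilin), was at 982 ± 10.1 and 1010 ± 46.3 FPKM, Arpc1b at 619 ± 6.66 and 623 ± 14.8 FPKM and Arpc2 at 616 ± 4.36 and 611 ± 10.5 FPKM in CD44+/+ and CD44-/- samples (SD, n = 3 each). Gsn (gelsolin), which severs and caps actin filaments, was at 86.3, 78.2 and 87.5 FPKM in CD44+/+ and at 104, 110 and 103 FPKM in CD44-/- samples. Its groups did not overlap, and its log2 fold change of 0.33 ± 0.06 (SE) did not pass the adjustment (limma adjusted p = 0.126). Dock2, named after its values were seen, was the other gene without overlap, with a log2 fold change of -0.05 (limma adjusted p = 0.919).

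Of the 5 subunits of the NADPH oxidase, which makes superoxide when an IgG-coated particle is engulfed, none was called. Cybb, the catalytic subunit, was at 585, 638 and 648 FPKM in CD44+/+ and at 580, 537 and 540 FPKM in CD44-/- samples, with all CD44-/- values below all CD44+/+ values (log2 fold change -0.17, limma adjusted p = 0.489). Its membrane partner Cyba was at 916 ± 35.8 and 911 ± 38.9 FPKM, and the cytosolic subunit Ncf1 at 182 ± 11.9 and 182 ± 7.90 FPKM (SD, n = 3 each).

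Of the genes that serve FcRn, 4 of 6 were tested, with all 4 values above 0, a median of 0.05 and none called. B2m, the light chain of FcRn and of MHC class I, was at 1910, 1930 and 1840 FPKM in CD44+/+ and at 1920, 1900 and 2100 FPKM in CD44-/- samples, 6.56 to 8.37 times Fcgrt in the same sample. The recycling genes Rab11a (42.4 ± 1.38 and 43.8 ± 2.36 FPKM) and Snx4 (30.8 ± 0.710 and 31.3 ± 1.65 FPKM) overlapped between the genotypes, and Rab25 was below 1 FPKM in every sample.

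**Figure D4:**
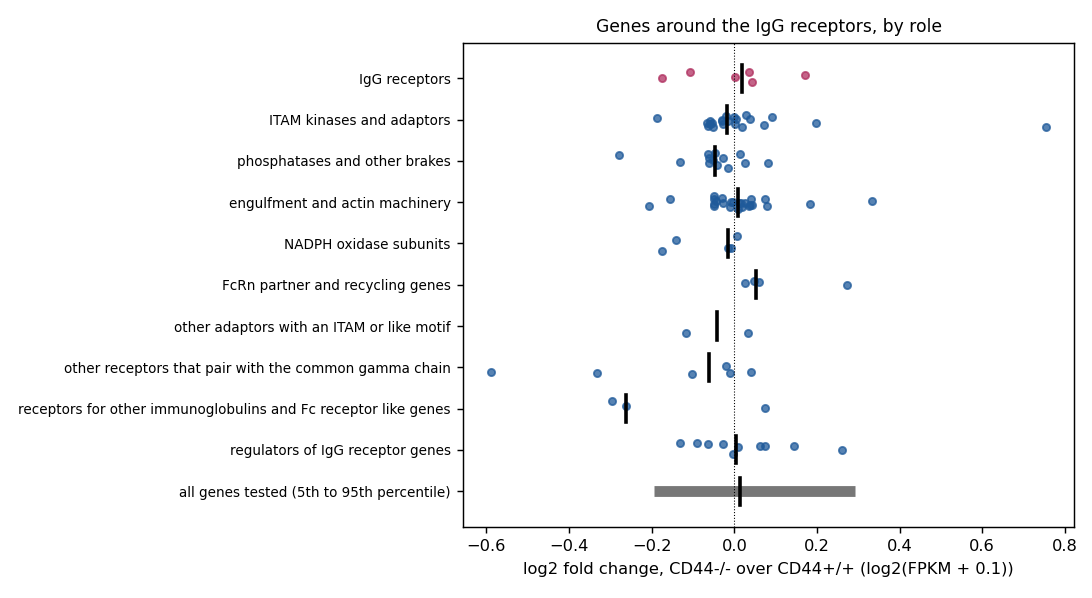
Log2 fold change, CD44-/- over CD44+/+, of each tested gene (point) in the lists named at the left, with the list's median (black bar), and at the bottom the range from the 5th to the 95th percentile of all 10800 genes (-0.20 to 0.29). No point was called, and the medians lie between -0.26 (3 genes) and 0.05.

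The γ chain is shared with other receptors and has a close relative in Tyrobp (DAP12), another ITAM adaptor. Tyrobp was at 1680, 1740 and 1710 FPKM in CD44+/+ and at 1760, 1660 and 1830 FPKM in CD44-/- samples, which was 1.80 to 1.90 times Fcer1g in every sample. The adaptor Hcst (DAP10) was at 37.0 ± 5.14 and 33.9 ± 0.808 FPKM (SD, n = 3 each), and Cd247, the T cell receptor ζ chain, was below the minimum for testing at 0.0449 to 0.305 FPKM. Of 11 other receptors that pair with the γ chain 6 were tested, and none was called or free of overlap. Clec4n (dectin-2), a receptor for fungal mannan, was the most abundant at 548 ± 25.4 and 510 ± 31.8 FPKM, above every IgG-binding Fcγ receptor gene. Lilra5 was at 93.0 ± 3.75 and 92.4 ± 6.45 FPKM and Pira6, one of several similar paired-receptor genes whose reads may be split, at 45.3 ± 3.73 and 46.6 ± 3.24 FPKM. Clec4e (mincle), a receptor for mycobacterial glycolipid, had the largest difference of the list, with 15.9, 38.9 and 40.2 FPKM in CD44+/+ and 19.4 ± 0.954 FPKM (SD, n = 3) in CD44-/- samples, and CD44+/+ replicate 1 lay below the CD44-/- samples (log2 fold change -0.59, limma adjusted p = 0.735).

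Receptors for other immunoglobulin classes were low or at 0. The list of 13 genes also holds Fc receptor-like genes and Trim21, and 3 of the 13 were tested. Trim21, a cytosolic IgG receptor, was at 7.18 ± 0.659 and 7.57 ± 0.858 FPKM, and Pigr, the transporter of polymeric IgA and IgM in epithelium, was at 1.55 to 3.83 FPKM in CD44+/+ and 1.20 to 3.81 FPKM in CD44-/- samples. Fcrlb was at 1.59 ± 0.0781 and 1.33 ± 0.267 FPKM, and lower in every CD44-/- sample without being called (log2 fold change -0.26, limma adjusted p = 0.851). Fcer1a, the IgE-binding chain that also pairs with the γ chain, was listed at 0 in all 6 samples, as were Fcrl5, Fcrl6 and the platelet receptor gene Gp6.

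**Figure D5:**
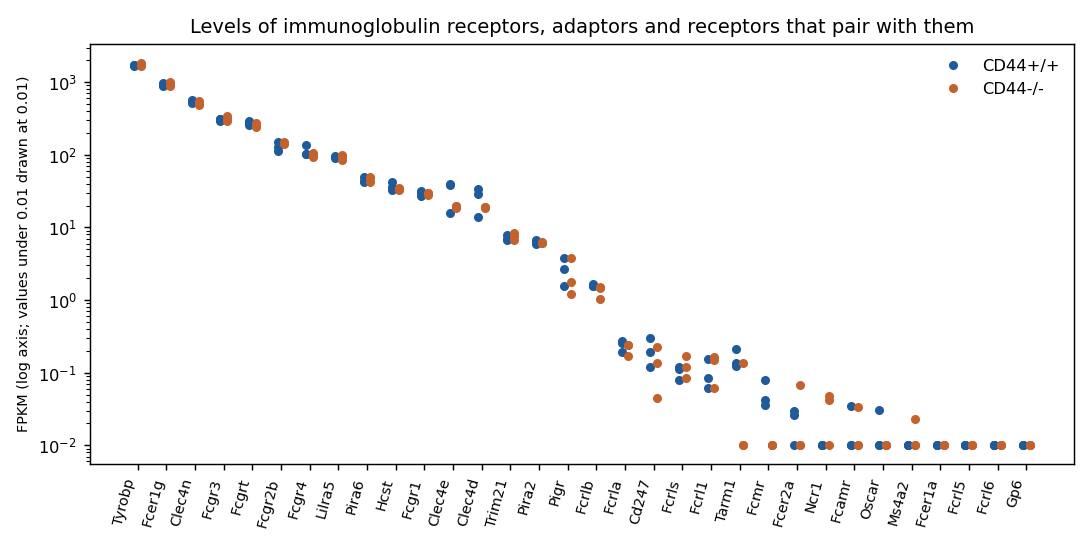
FPKM on a log axis of 32 genes, ordered by mean: the 6 IgG receptor genes, the ITAM or like adaptors, other receptors that pair with the γ chain and receptors for other immunoglobulins, with 1 point per CD44+/+ (blue) or CD44-/- (orange) sample and values under 0.01 drawn at 0.01. All 6 IgG receptor genes lie at 27.0 FPKM or more in every sample. The list of receptors for other immunoglobulins lies at 8.37 FPKM or less. It also holds Fc receptor-like genes and the cytosolic IgG receptor Trim21, which has that highest value.

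Regulators of IgG receptor genes, which include transcription factors of the myeloid lineage and of cytokine responses, were all tested (10 of 10), with 5 values above 0, 5 below, a median of 0.0030 and none called. Spi1 (PU.1), which drives many myeloid receptor genes, was at 402, 359 and 383 FPKM in CD44+/+ and at 410, 388 and 396 FPKM in CD44-/- samples. Cebpa was at 193 ± 40.2 and 202 ± 18.4 FPKM (SD, n = 3 each). Cebpb, which also responds to stress and inflammation, was at 547, 176 and 239 FPKM in CD44+/+ and at 574, 240 and 287 FPKM in CD44-/- samples. Replicate 1 of each genotype stood far above replicates 2 and 3, and within same-numbered pairs the CD44-/- sample was the higher one in 3 of 3 (log2 fold change 0.26 ± 0.43, SE; limma adjusted p = 0.970). Stat6, named after its values were seen, was the 1 regulator without overlap, with a log2 fold change of -0.06 (limma adjusted p = 0.858).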

How the data were processed

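Of the authors' steps, paired-end reads of stranded mRNA libraries were aligned to mm10 with STAR, and Cufflinks estimated expression. The authors deposited FPKM values per gene and sample, which are scaled for depth and transcript length. The annotation and the strand setting of the counting are not given in the sources used here. The deposited table also holds group means and the p-values and q-values of the authors' own Cuffdiff comparison, which were not used. Positions were looked up by gene name and given a first base of 1. Of 24341 rows, 1 lacked a value and was left out, and 101 identifiers held more than 1 gene name.

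The 10800 genes that reached a mean of 0.5 FPKM were compared on log2(FPKM + 0.1) with limma 3.58.1 (R 4.3.3; lmFit, eBayes with intensity trend) in a two-sided test, and p-values were adjusted by the Benjamini-Hochberg method. A fold change on this scale understates that of low genes. Exact permutation tests ran over all 20 assignments of the genotype labels. The receptor genes and the lists were chosen with earlier results of these data known. Besides these genes and Cd44, the text names from each list the 3 genes with the highest mean, the gene with the largest absolute log2 fold change and any gene called, and the 2 genes most correlated with each receptor gene. Others are named as chosen after their values were seen, and Inpp5d and Chil3 were also named outside that rule. Some genes at 0 or without a row are named from the marker and receptor lists. Same-numbered samples of the 2 genotypes had correlated deviations from their group means (0.212, 0.132 and 0.211 over 10800 genes), which counts as pairing from the data, not from the labels, and a fit with the replicate number as a block was added as an alternative. Sums of FPKM were 487901 to 504182 per sample, with 14269 to 14512 genes above 0.

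On simulated data of 10800 genes for this comparison, 92% of genes given a log2 change of 1 were called, and 96% of genes given a log2 change of 2. Smaller changes were not simulated, so these rates do not cover changes of the size measured for the receptor genes. Sequences came from the GRCm38 genome with GENCODE vM21 and were aligned with Biopython 1.88. Alternatives were other pseudocounts, filters, scalings and variance models, the block, and the removal of each sample in turn. The comparison of the Fcgr4 to Fcgr2b ratio under alternatives was added after seeing the data.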

Additional observations from a re-analysis of the deposited data

How the results depend on the processing

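Under 15 alternatives none of the 6 receptor genes was called, with a lowest limma adjusted p of 0.325 (Fcgr2b without CD44+/+ replicate 3). Fcgr2b, Fcgr4 and Fcgrt kept their sign in 15 of 15. The log2 fold change of Fcgr1 turned to -0.01 under median-ratio scaling (-0.012) and quantile normalization (-0.011), and when samples were removed singly it ranged from -0.061 to 0.050. With samples left out, Fcgr3 ranged from -0.024 to 0.099, Fcer1g from -0.0056 to 0.073, Fcgr2b from 0.07 to 0.29, Fcgr4 from -0.25 to -0.04 and Fcgrt from -0.17 to -0.06. The 12 genes called in the whole table became 7 without the filter on low values (16227 genes tested) and 6 to 36 with a sample left out. They were 36 without CD44+/+ replicate 1, 7 without CD44+/+ replicate 2, 22 without CD44-/- replicate 1 and 6 without CD44-/- replicate 2. The cause of these changes, with the filter or with the samples, was not tested. With the replicate number as a block, 9 genes were called, and the block changed the call of no receptor gene at the adjusted threshold. The median of all genes moved from 0.01 to -0.0014 under median-ratio scaling and -0.0043 under quantile normalization. The log2 difference of the activating to inhibitory ratio was -0.19, -0.15 under quantile normalization and -0.26 to -0.09 with a sample left out. That of Fcgr4 over Fcgr2b was -0.33 under quantile normalization. Since absolute depth is unknown, no counting error could be given for the low values of genes such as Src and Pigr.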
